A study of Rattus norvegicus with 15 samples.

Results

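The genes described here are the chromatin modifiers and 2-oxoglutarate dioxygenases that changed in the adrenal medulla of MENX rats. They were chosen by symbol: of the 8621 genes listed in the deposited tables of the RNA-seq comparisons, 93 carried a symbol of these families (dioxygenases such as Tet, Kdm, Jmjd, Alkbh, Egln and P3h, writers, readers and erasers such as Dnmt, Ezh, Cbx, Setd, Prmt, Hdac and Kat, remodelers such as Smarc, Arid and Chd, and HMG and histone genes), and the 89 of them on autosomes were kept. No expression value entered the choice, but a gene stands in a table only if the authors had called it on these same samples. Rats of the strain given as Sprague-Dawely were compared in 3 groups of 5 samples. WT medulla came from wildtype rats of 7 to 9.5 months, HYP (hyperplasia) from MENX rats of 4 to 5 months, and PCC (pheochromocytoma, the tumor of the chromaffin cells of the medulla) from MENX rats of 7 to 9.5 months. MENX rats carry a spontaneous frameshift mutation of *Cdkn1b*, which encodes the cell cycle inhibitor p27, in all of their tissues. In every group the medulla was freed of cortex by macrodissection and then snap-frozen. HYP differed from WT in age as well as in genotype, and from PCC in age as well as in lesion, and in neither comparison can these be told apart. The labels do not say which PCC samples are the advanced tumors that the study describes, so the PCC samples were treated as 1 group.

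The 2-oxoglutarate dioxygenases are iron-dependent enzymes that use oxygen and 2-oxoglutarate to hydroxylate or demethylate DNA, RNA, histones, collagen and the hypoxia-inducible factors, and they release succinate and CO2. Succinate, fumarate and 2-hydroxyglutarate compete with 2-oxoglutarate for them, which is why they are studied in pheochromocytomas with defects of the citric acid cycle. The other members write, read or erase marks on histones and DNA, move nucleosomes, or are nucleosome components themselves.

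Libraries held between 16315018 and 23831269 reads on genes. *Cdkn1b* itself, whose mutant transcript is still counted, measured between 44.6 and 72.1 CPM (read counts scaled to a common library size) in WT, between 82.5 and 123.9 in HYP and between 108.2 and 172.8 in PCC. *Kdm5d*, a Y-linked demethylase that is no member, had 1272, 1150, 1217 and 805 reads in WT replicates 1 to 4, 0 in WT replicate 5, and 0 in every MENX sample except 7 in PCC replicate 5. Comparisons of MENX with WT samples therefore also compare samples mostly without and mostly with Y-chromosome transcripts, and genotype and presence of a Y chromosome cannot be told apart outside WT replicate 5. In PCC vs. HYP the 7 reads of 1 sample were the only such reads. The defining markers of the labelled chromaffin cells (*Th*, *Dbh*, *Ddc* and others) were present in all groups: their summed level was 1681 to 7927 CPM in WT and 14760 to 28500 in PCC, and 8 of 8 tested were higher in PCC. Adrenal cortex remained in the dissected tissue and moved with the groups. The summed level of the 9 cortex markers with values was 24100 to 67970 CPM in WT and 1091 to 17300 in PCC, with 7 of 9 lower in PCC. Proliferation markers rose, 8 of 10 in PCC vs. WT and 7 of 8 in HYP vs. WT, while *Pcna* fell in both. The shares over all genes tested were 46.7% higher and 38.5% lower in PCC vs. WT, and 39.5% and 32.5% in HYP vs. WT. The part of these cells in the results below was not tested, and in bulk tissue fewer cells of a type and less RNA per cell cannot be told apart.

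Promoters of 4 members are shown because these carried large changes in opposite directions: *Ezh2* and *Sirt1* were lower in PCC than in WT, *Hmgb2* and *Cbx6* higher. Sequences are from RefSeq on GRCr8, from 250 bases before to 50 bases after the transcription start, 5′ to 3′ on the gene's strand. They are chr4:77687134-77687433 (minus strand) for *Ezh2*, chr16:37723901-37724200 (minus) for *Hmgb2*, chr7:113263364-113263663 (minus) for *Cbx6* and chr20:25305703-25306002 (plus) for *Sirt1*. Capitals mark words of cell cycle promoters in the first pair (CCAAT, the E2F word TTTGGCGC and the CHR word TTTGAA) and of hypoxia response elements in the second pair (ACGTG and GCGTG), each on either strand.
Ezh2: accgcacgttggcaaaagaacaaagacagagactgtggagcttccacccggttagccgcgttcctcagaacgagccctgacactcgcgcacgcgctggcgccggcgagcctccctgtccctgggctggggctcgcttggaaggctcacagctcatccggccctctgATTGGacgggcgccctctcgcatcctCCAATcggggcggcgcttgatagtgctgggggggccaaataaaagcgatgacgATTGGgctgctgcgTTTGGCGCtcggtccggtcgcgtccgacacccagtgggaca
Hmgb2: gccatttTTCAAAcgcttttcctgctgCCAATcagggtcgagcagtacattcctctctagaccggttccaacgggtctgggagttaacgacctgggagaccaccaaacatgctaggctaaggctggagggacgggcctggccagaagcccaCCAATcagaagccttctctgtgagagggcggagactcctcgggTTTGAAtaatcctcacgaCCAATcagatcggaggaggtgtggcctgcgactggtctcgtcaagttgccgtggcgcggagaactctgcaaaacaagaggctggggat
Cbx6: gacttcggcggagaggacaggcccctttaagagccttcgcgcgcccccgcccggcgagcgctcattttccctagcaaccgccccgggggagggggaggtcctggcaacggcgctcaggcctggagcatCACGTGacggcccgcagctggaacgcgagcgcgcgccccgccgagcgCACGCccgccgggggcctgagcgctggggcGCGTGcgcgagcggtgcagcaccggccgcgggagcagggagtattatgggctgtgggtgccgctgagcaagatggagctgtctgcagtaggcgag
Sirt1: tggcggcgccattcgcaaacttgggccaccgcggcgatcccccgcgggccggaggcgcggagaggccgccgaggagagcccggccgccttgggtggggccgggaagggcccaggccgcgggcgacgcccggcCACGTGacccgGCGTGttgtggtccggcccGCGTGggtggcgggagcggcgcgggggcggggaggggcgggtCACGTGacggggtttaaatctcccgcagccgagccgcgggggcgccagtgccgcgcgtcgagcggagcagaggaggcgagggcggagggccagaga
A palindromic CACGTG counts as a match on both strands, so the *Cbx6* promoter held 4 hypoxia response words and the *Sirt1* promoter 6. *Ezh2* held an E2F word 10 bases after its start and CCAAT at 84, 58 and 5 bases before it, and *Hmgb2* held CCAAT at 223, 99 and 38 bases before its start and CHR words at 243 and 56. The *Ezh2* window also held 2 hypoxia response words, left in lower case. Promoters were found for 69 members, 65 by symbol and 4 by synonym, leaving out the 6 histone entries that share a symbol. Among them 53.6% held a hypoxia response word, against 41.6% of all 33469 promoters in the RefSeq table, with 46.9% of 32 called higher in PCC and 71.4% of 21 called lower. An E2F word (TTTCCCGC, TTTCGCGC, TTTGCCGC or TTTGGCGC) stood in 8.70% of member promoters and 2.14% of all, CCAAT in 37.7% and 37.5%, and TTTGAA in 11.6% and 18.3%. The members and all promoters were not matched in gene type or base composition, and the hypoxia response and E2F words all hold CG. A match describes letters in this window and not the binding of a factor.

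In PCC vs. WT, 36 of 73 members tested were higher in PCC and 28 lower at an adjusted *p* under 0.05 (edgeR quasi-likelihood test, Benjamini-Hochberg adjustment). Of all 7001 genes tested, 85.2% were called in either direction, 46.7% higher and 38.5% lower, so the members' share, 87.67%, was near that of the table they come from. The median log2 fold change was 0.50 for the members and 0.44 for all genes tested, and 53.42% of members and 62.02% of all genes changed at least 2-fold in fitted size. In HYP vs. WT, 13 of 41 members were higher and 16 lower, where 39.5% of all genes were called higher and 32.5% lower. In PCC vs. HYP, 5 of 32 members were higher and 6 lower, where 21.8% of all genes were called higher and 22.6% lower. The groups did not overlap for 26 members higher and 15 lower in PCC vs. WT, 11 and 7 in HYP vs. WT, and 10 and 5 in PCC vs. HYP, against 64.7%, 54.8% and 54.3% of all genes tested in either direction. The 3 comparisons share their samples in pairs, so their counts are not independent. With scaling to the library totals in place of the trimmed mean of M values (TMM), which shifted the median of all genes by 0.29, 0.19 and 0.22 on the log2 scale in the 3 comparisons, the split of higher to lower calls was 38 to 12, 17 to 5 and 11 to 3. With scaling to the sum over the listed genes it was 38 to 12, 18 to 2 and 5 to 3, and for PCC vs. HYP it was 6 to 11 with DESeq2 and 8 to 4 with the authors' size factors. With the cortex marker level as a covariate it was 2 to 4, 0 to 5 and 1 to 0, in a design where that level did not overlap between the groups in any comparison. All genes tested also moved. They split 3520 to 1592, 1809 to 577 and 1026 to 426 with the library totals, and 3545 to 1100, 1966 to 235 and 756 to 350 with the listed sum. In PCC vs. HYP they split 812 to 1399 with DESeq2 and 891 to 562 with the authors' size factors. The cortex covariate left 661 to 490, 106 to 211 and 27 to 5.

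**Figure D1:**
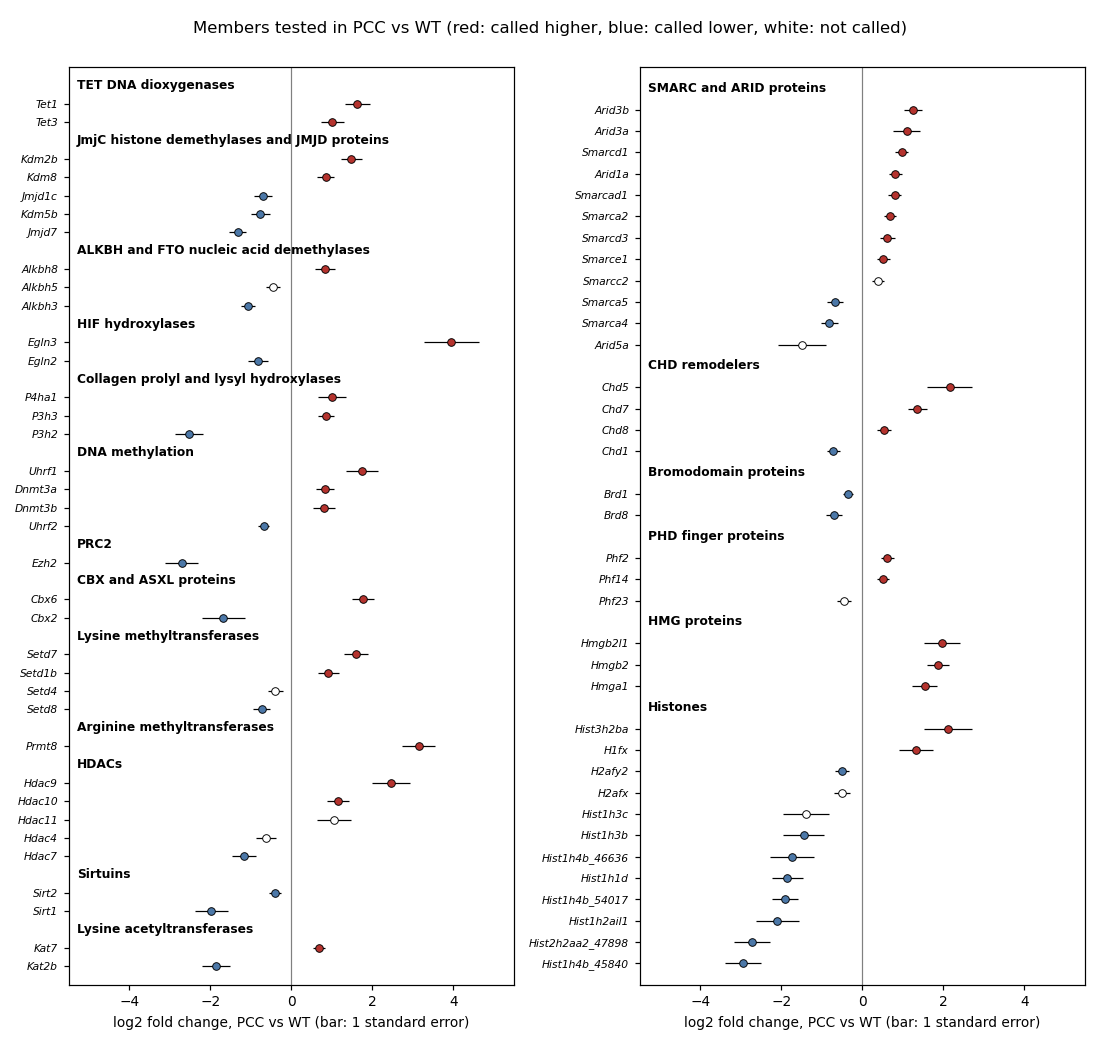
Log2 fold change of PCC vs. WT (horizontal axis) for 72 of the 73 members tested, 1 point each with a bar of 1 standard error, grouped by family. Red points are the 36 called higher, blue 27 called lower and white the 9 not called, with *Egln3* at 3.95 and *Hist1h4b* (ENSRNOG00000045840) at -2.95 at the ends.

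Both TET members were higher in PCC than in WT, where 46.7% of all genes tested were higher. The family has 3 symbols in RefSeq, and *Tet2* was not among the members. TET enzymes oxidise 5-methylcytosine to 5-hydroxymethylcytosine, the first step of active DNA demethylation. *Tet1* (ENSRNOG00000000277, chr20:27366213-27437427 on Rn06) measured 2.07, 1.56, 2.16, 1.19 and 1.42 CPM in WT replicates 1 to 5. It measured 2.60, 8.95, 4.58, 5.52 and 7.24 CPM in HYP, and 4.10, 7.09, 7.25, 4.30 and 3.91 CPM in PCC. Every MENX sample lay above every WT sample, and HYP and PCC overlapped widely. The rise was 1.62 ± 0.31 (SE, n = 5 per group) on the log2 scale in PCC vs. WT (edgeR adjusted *p* = 0.00227) and 1.72 ± 0.33 in HYP vs. WT (edgeR adjusted *p* = 0.00523), and neither call was lost when 1 library was left out. *Tet1* was not listed for PCC vs. HYP.

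*Tet3* (chr4:115066309-115157263 on Rn06) measured 11.3, 7.86, 11.3, 6.39 and 19.8 CPM in WT, 13.4, 23.7, 13.6, 31.2 and 30.9 CPM in HYP and 14.3, 26.1, 30.3, 21.2 and 22.6 CPM in PCC. WT replicate 5 lay within the range of both MENX groups. The log2 fold change was 1.01 ± 0.29 in PCC vs. WT (edgeR adjusted *p* = 0.0208) and 0.94 ± 0.34 in HYP vs. WT, which did not pass (edgeR adjusted *p* = 0.0839). The PCC call was lost without PCC replicate 3 or WT replicate 2 (highest adjusted *p* = 0.0531). Per transcript length, *Tet3* was the more abundant, with a mean of 1.65 FPKM in WT against 0.257 for *Tet1*, and 4.20 against 0.980 in PCC.

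The 2 HIF hydroxylases among the members moved in opposite directions. The family has 4 symbols in RefSeq, and *Egln1* and *Hif1an* were not among the members. *Egln2* and *Egln3* mark the alpha subunits of hypoxia-inducible factors for degradation through VHL when oxygen is present. *Egln3* is itself a well-known target of these factors. *Egln3* (ENSRNOG00000005053, chr6:75050329-75075795 on Rn06) measured 0.818, 0.856, 0.791, 1.75 and 0.854 CPM in WT, 2.09, 1.87, 0.774, 2.497 and 2.55 CPM in HYP, and 19.0, 8.30, 8.05, 42.3 and 2.58 CPM in PCC. All PCC samples lay above all others, although PCC replicate 5 exceeded the highest HYP sample only narrowly and PCC replicate 4 was far above the rest. The log2 fold change was 3.95 ± 0.69 in PCC vs. WT (edgeR adjusted *p* = 0.00148), the largest rise among the members tested, and 2.91 ± 0.64 in PCC vs. HYP (edgeR adjusted *p* = 0.0218). The second call was lost without HYP replicate 2, 3 or 4 (highest adjusted *p* = 0.0671).

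*Egln2* (chr1:83969457-83977236 on Rn06) measured 171.5, 231.7, 159.0, 152.1 and 114.4 CPM in WT, 92.7, 68.0, 64.9, 108.1 and 98.1 CPM in HYP, and 59.6, 92.3, 91.6, 122.0 and 115.4 CPM in PCC. HYP lay below every WT sample, while 2 PCC samples reached the lowest WT sample. It fell by 0.99 on the log2 scale in HYP vs. WT (SE 0.21, edgeR adjusted *p* = 0.00754) and by 0.83 in PCC vs. WT (SE 0.25, edgeR adjusted *p* = 0.0249). The PCC call was lost without WT replicate 2, PCC replicate 2 or PCC replicate 3, and without WT replicates 1 and 2 the log2 fold change was -0.58 (edgeR adjusted *p* = 0.149). *Egln2* overlaps the listed gene *Cyp2t1* on the opposite strand, and the library kit does not mark strand. Mean levels per length were 77.6 FPKM for *Egln2* and 0.328 for *Egln3* in WT, and 53.8 and 6.21 in PCC.

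Among the partners of these hydroxylases, *Epas1*, which encodes HIF-2 alpha, rose in every comparison. It measured 153.0 to 476.4 CPM in WT, 1208 to 1967 in HYP and 2740 to 6652 in PCC, with log2 fold changes of 3.64 ± 0.40 in PCC vs. WT and 2.09 ± 0.28 in HYP vs. WT (edgeR adjusted *p* = 0.000151 and 0.000871). *Vhl* fell by 0.97 and 0.58 in the same comparisons. Of the 6 partners tested in PCC vs. WT, 1 was higher and 4 were lower, where 46.7% of all genes tested were higher and 38.5% lower. The lower ones besides *Vhl* were *Crtap*, *Fkbp10* and *Serpinh1*, which assist collagen maturation.

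The JmjC members, 6 of the 19 symbols of their family in RefSeq, did not move one way. *Kdm2b*, a demethylase that also recruits a Polycomb complex to unmethylated CpG islands, measured 12.6, 12.2, 11.3, 9.08 and 18.9 CPM in WT, 22.4, 23.4, 17.9, 19.2 and 22.6 CPM in HYP and 25.2, 39.4, 32.3, 56.3 and 27.0 CPM in PCC. The PCC samples lay above all HYP and WT samples, and WT replicate 5 alone reached into the HYP range. The log2 fold change was 1.48 ± 0.26 in PCC vs. WT (edgeR adjusted *p* = 0.00151) and 0.67 ± 0.20 in HYP vs. WT (edgeR adjusted *p* = 0.0389), the latter lost when any of 8 libraries was left out, with an adjusted *p* up to 0.121. PCC vs. HYP gave 0.66 ± 0.22 (edgeR adjusted *p* = 0.0807).

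*Jmjd7*, which hydroxylates lysines of small GTPases, measured 40.5, 36.2, 37.1, 30.2 and 30.9 CPM in WT, 21.7, 19.6, 18.3, 27.4 and 19.8 CPM in HYP and 13.7, 13.3, 18.1, 8.70 and 17.7 CPM in PCC. The 5 WT samples lay above all others. It fell by 1.33 in PCC vs. WT (SE 0.22, edgeR adjusted *p* = 0.000997) and by 0.77 in HYP vs. WT (SE 0.16, edgeR adjusted *p* = 0.00683). *Kdm6b*, which removes the repressive trimethyl mark that *Ezh2* writes, measured 110.1 to 151.6 CPM in WT, 78.5 to 99.8 in HYP and 104.5 to 179.8 in PCC. It fell by 0.58 in HYP vs. WT (SE 0.13, edgeR adjusted *p* = 0.0112), and PCC samples lay above all HYP samples with a log2 fold change of 0.54 that did not pass (edgeR adjusted *p* = 0.0658).

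*Kdm8* was higher in PCC than in WT (0.85 ± 0.21), with PCC samples at 22.8 to 50.6 CPM and WT samples at 16.9 to 24.3. *Jmjd1c* fell by 0.70 (SE 0.22, edgeR adjusted *p* = 0.0314), from 174.1 to 381.3 CPM in WT to 111.7 to 185.4 in PCC, and lost its call without any of 5 libraries. *Kdm5b*, a demethylase of active promoters, fell by 0.77 in PCC vs. WT (SE 0.24, edgeR adjusted *p* = 0.0295), but WT replicate 5, at 329.7 CPM, stood apart from the other WT samples at 121.7 to 156.2 and the PCC samples at 75.9 to 125.0. That same library had the highest level of the cortex markers. Without PCC replicate 2, 3 or 4 the *Kdm5b* call was lost.

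The ALKBH members, 3 of the 9 symbols of the ALKBH and FTO family in RefSeq, act on nucleic acids. *Alkbh3*, which repairs alkylated DNA and RNA, measured 68.8, 61.9, 59.8, 71.4 and 64.0 CPM in WT, 49.95, 34.5, 49.7, 45.9 and 37.3 CPM in HYP and 34.0, 21.7, 28.3, 35.1 and 40.6 CPM in PCC. WT lay above both MENX groups without overlap. It fell by 1.06 in PCC vs. WT (SE 0.17, edgeR adjusted *p* = 0.00106) and by 0.64 in HYP vs. WT (SE 0.14, edgeR adjusted *p* = 0.0106). *Alkbh8*, a tRNA-modifying enzyme, was higher in PCC vs. WT (0.84 ± 0.24, edgeR adjusted *p* = 0.0210), a call lost without any of 5 libraries. *Alkbh5*, which removes methyl groups from adenosines of mRNA, measured 71.7 to 136.0 CPM in WT and 56.9 to 91.9 in PCC with a log2 fold change of -0.45 (edgeR adjusted *p* = 0.0826), which became 0.06 with scaling to the sum over the listed genes.

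The collagen hydroxylase members, 4 of the 10 symbols of their family in RefSeq, also split. *P3h2*, a prolyl 3-hydroxylase that modifies basement membrane collagen, measured 31.9, 33.0, 44.4, 28.7 and 27.7 CPM in WT, 12.9, 16.3, 24.7, 15.7 and 14.3 CPM in HYP and 7.70, 3.40, 8.61, 2.32 and 7.60 CPM in PCC. The 3 groups did not overlap and followed the order WT, HYP, PCC. It fell by 2.52 in PCC vs. WT (SE 0.35, edgeR adjusted *p* = 0.000470), by 1.03 in HYP vs. WT (SE 0.21, edgeR adjusted *p* = 0.00601) and by 1.59 in PCC vs. HYP (SE 0.37, edgeR adjusted *p* = 0.0258). The last call was lost without HYP replicate 2, 3 or 4 or PCC replicate 2. Its paralog *P3h3* was higher in PCC, at 117.5 to 157.4 CPM against 59.3 to 95.7 in WT (0.85 ± 0.19, edgeR adjusted *p* = 0.00605). *P4ha1*, a catalytic subunit of the collagen prolyl 4-hydroxylase, measured 19.0 to 67.1 CPM in WT and 35.1 to 111.8 in PCC (1.01 ± 0.35, edgeR adjusted *p* = 0.0469), and this call was lost without any of 8 libraries, with an adjusted *p* up to 0.121. *P4ha3* had at most 17 reads in any sample and was not tested. In all, 8 of the 15 dioxygenases tested were higher in PCC than in WT and 6 lower, 2 of 8 were higher and 5 lower in HYP vs. WT, and 1 of 7 was higher and 1 lower in PCC vs. HYP. Of all genes tested, 46.7% were higher and 38.5% lower in PCC vs. WT, 39.5% and 32.5% in HYP vs. WT, and 21.8% and 22.6% in PCC vs. HYP, so the PCC vs. WT split of the dioxygenases was near that of the table.

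**Figure D2:**
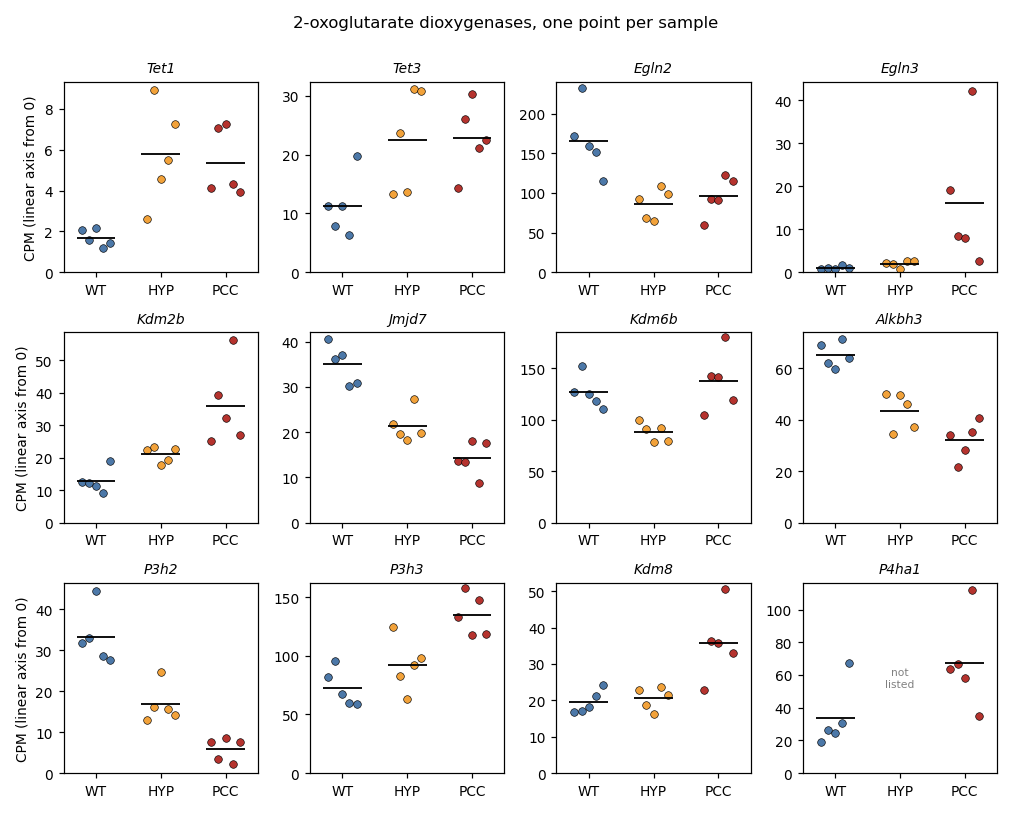
CPM (vertical axes, linear from 0) of 12 dioxygenases in each sample, with WT in blue, HYP in orange and PCC in red, 1 point per sample and a line at the group mean. *Tet1* is above WT in both MENX groups, *Egln3* in PCC, and *P3h2* falls from WT over HYP to PCC.

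The genes that make or use the cofactor and its competitors were largely lower in PCC. Of 18 tested enzymes of 2-oxoglutarate, succinate, fumarate and 2-hydroxyglutarate, 14 were lower and 1 (*Idh3a*, 0.61) was higher in PCC vs. WT. Of all genes tested, 38.5% were lower and 46.7% higher. The median of these enzymes was -0.89 on the log2 scale against 0.44 for all genes tested. *Fh*, which encodes fumarate hydratase, fell by 1.40, *Sdhb* by 1.14 and *Idh2* by 1.37. In HYP vs. WT 6 of 11 were lower, and in PCC vs. HYP 7 of 9. Of all genes tested, 32.5% were lower in HYP vs. WT and 22.6% in PCC vs. HYP. The summed level of the enzymes was 1379 to 2113 CPM in PCC and 2688 to 4475 in WT. Of the cortex markers tested, 7 of 9 were lower in PCC vs. WT, 3 of 6 in HYP vs. WT and 0 of 4 in PCC vs. HYP (edgeR), where all 4 had an unadjusted *p* under 0.05 and log2 fold changes of -1.57 (*Nr5a1*) or below. Their part was not tested. Of 7 other dioxygenases tested in PCC vs. WT, 3 were higher and 3 lower. *Hr*, a JmjC corepressor, rose by 2.49 (SE 0.32) and *Phyh*, a peroxisomal enzyme of phytanate oxidation, fell by 2.20 (SE 0.36).

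Of the 4 DNA methylation genes tested in PCC vs. WT, 3 were higher and 1 lower, where 46.7% of all genes tested were higher and 38.5% lower. The family has 6 symbols in RefSeq, and *Dnmt1* was not among the members. *Uhrf1*, which brings the maintenance methyltransferase to replicated DNA, measured 4.18, 4.33, 3.32, 3.13 and 2.99 CPM in WT, 5.26, 4.72, 3.61, 4.18 and 4.49 CPM in HYP and 3.92, 18.3, 10.6, 19.0 and 9.84 CPM in PCC. PCC replicate 1 lay within the WT and HYP range, and the other 4 PCC samples lay well above it. The log2 fold change was 1.75 ± 0.40 in PCC vs. WT (edgeR adjusted *p* = 0.00611) and 1.35 ± 0.36 in PCC vs. HYP (edgeR adjusted *p* = 0.0419), the second lost without any of 8 libraries, with an adjusted *p* up to 0.115.

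The de novo methyltransferases rose by less. *Dnmt3a* measured 26.0, 24.7, 18.6, 15.5 and 23.2 CPM in WT and 33.3, 43.3, 37.4, 55.6 and 26.3 CPM in PCC, with no overlap by a narrow margin (0.83 ± 0.23, edgeR adjusted *p* = 0.0180, lost without WT replicate 3 at 0.0511). *Dnmt3b* measured 1.92 to 3.94 CPM in WT and 5.06 to 7.04 in PCC (0.80 ± 0.27, edgeR adjusted *p* = 0.0405), lost without any of 7 libraries. *Uhrf2*, the paralog of *Uhrf1*, went the other way and fell by 0.69 in PCC vs. WT (SE 0.14, edgeR adjusted *p* = 0.00280), from 109.7 to 129.4 CPM in WT over 85.0 to 100.8 in HYP to 67.4 to 81.1 in PCC. The smaller HYP vs. WT change of -0.39 (edgeR adjusted *p* = 0.0408) became 0.07 with scaling to the sum over the listed genes, and the call was lost without any of 8 libraries. Among 8 other genes of methylation reading and demethylation tested in PCC vs. WT, 5 were higher and 3 lower, the lower including the stress-induced *Gadd45b* and *Gadd45g*. The shares over all genes tested were 46.7% higher and 38.5% lower.

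Among Polycomb genes *Ezh2* showed the largest fall of any member outside the histones in PCC vs. WT. *Ezh2* (ENSRNOG00000006048, chr4:77284404-77347011 on Rn06), the catalytic subunit of Polycomb repressive complex 2, measured 170.2, 273.4, 117.2, 160.6 and 45.5 CPM in WT replicates 1 to 5. It measured 27.1, 67.5, 118.0, 45.8 and 40.5 CPM in HYP, and 20.2, 23.01, 24.6, 32.7 and 21.9 CPM in PCC. PCC samples were low and close together, and WT and HYP spread widely and overlapped through WT replicate 5 and HYP replicate 3. It fell by 2.71 in PCC vs. WT (SE 0.41, edgeR adjusted *p* = 0.000718) and by 1.39 in PCC vs. HYP (SE 0.34, edgeR adjusted *p* = 0.0298), while HYP vs. WT gave -1.41 and did not pass (edgeR adjusted *p* = 0.0557). The PCC vs. WT fall was -3.37 with the cortex marker level as a covariate (edgeR adjusted *p* = 0.00958), and the PCC vs. HYP call was lost without any of 5 libraries. *Ezh2* is known as a gene of dividing cells, and here it was lowest in the group in which *Mki67* was highest, at 22.4 to 65.0 CPM in PCC against 5.53 to 7.45 in WT.

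The CBX proteins of Polycomb repressive complex 1 read the mark of *Ezh2*. *Cbx2*, named after its values were seen, fell by 1.69 in PCC vs. WT and by 1.72 in HYP vs. WT (edgeR adjusted *p* = 0.0296 and 0.0297), yet its WT samples ran from 71.5 and 79.7 CPM in replicates 1 and 2 to 10.9 in replicate 5, which lay inside the MENX ranges. Both calls were lost without WT replicate 1 or 2 or any of 4 MENX libraries, with an adjusted *p* up to 0.0756. *Cbx6* rose instead: its samples measured 54.2, 66.2, 57.7, 35.7 and 31.9 CPM in WT, 80.5, 100.8, 61.3, 112.0 and 150.0 CPM in HYP and 105.2, 185.0, 179.8, 233.5 and 159.7 CPM in PCC. PCC lay above all WT samples, and HYP replicate 3 lay among them. Its log2 fold change was 1.77 ± 0.28 in PCC vs. WT (edgeR adjusted *p* = 0.000848) and 0.98 ± 0.26 in HYP vs. WT (edgeR adjusted *p* = 0.0237, lost without WT replicate 4 at 0.0617). *Cbx7* was listed for PCC vs. HYP only and did not pass there (0.47, edgeR adjusted *p* = 0.207).

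**Figure D3:**
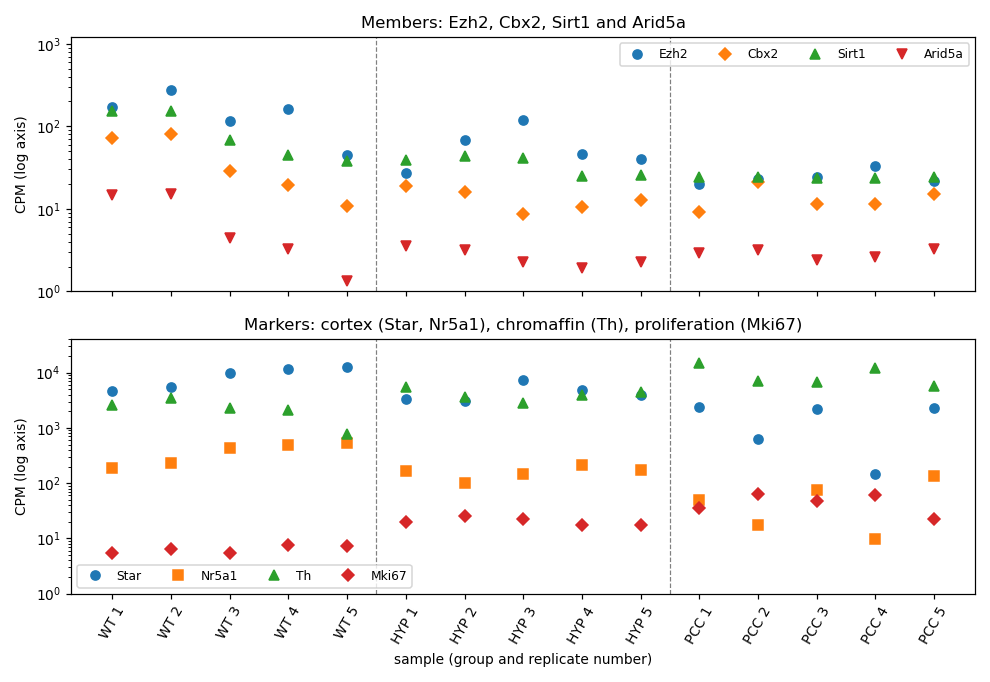
CPM (vertical axes, log scale) in each of the 15 samples (horizontal axis) of *Ezh2*, *Cbx2*, *Sirt1* and *Arid5a* above, and of cortex markers *Star* and *Nr5a1*, the chromaffin marker *Th* and the proliferation marker *Mki67* below. WT replicates 1 and 2 are the highest of all samples in the 4 members shown and the lowest WT samples in the cortex markers.

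WT replicates 1 and 2 stood apart in several members that fell. *Sirt1*, an NAD-dependent deacetylase, measured 154.7 and 151.3 CPM in those libraries, 69.0, 45.5 and 37.6 CPM in the other WT samples, 39.6, 43.3, 41.5, 24.97 and 26.0 CPM in HYP and 24.7, 24.4, 23.8, 23.9 and 24.5 CPM in PCC. The PCC samples were nearly identical and below all others. It fell by 1.98 in PCC vs. WT (SE 0.41, edgeR adjusted *p* = 0.00351) and by 1.44 in HYP vs. WT (SE 0.39, edgeR adjusted *p* = 0.0255). Without WT replicates 1 and 2 the HYP vs. WT change was -0.60 and not called (edgeR adjusted *p* = 0.202), and the call was also lost without HYP replicate 4 or 5 or either of those WT libraries alone. *Arid5a*, named after its values were seen, had 14.6 and 15.1 CPM in the same libraries and at most 4.38 in any other sample, and was not called.

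Histone deacetylases were led by *Hdac9*, a class IIa member. It measured 2.65, 2.37, 1.48, 2.38 and 1.85 CPM in WT, 1.78, 5.76, 4.38, 5.23 and 6.04 CPM in HYP and 7.93, 10.1, 11.4, 27.5 and 3.87 CPM in PCC. HYP replicate 1 was at the WT level and PCC replicate 5 within the HYP range. The log2 fold change was 2.46 ± 0.47 in PCC vs. WT (edgeR adjusted *p* = 0.00249), 1.06 ± 0.32 in HYP vs. WT (edgeR adjusted *p* = 0.0423, lost without any of 9 libraries) and 1.26 ± 0.47 in PCC vs. HYP, which did not pass (edgeR adjusted *p* = 0.130) and was -0.05 with the cortex covariate. Of 5 HDAC members tested in PCC vs. WT, 2 were higher and 1 (*Hdac7*, -1.17) lower, where 85.2% of all genes tested were called. *Kat2b*, an acetyltransferase of histones, measured 14.8 to 40.1 CPM in WT, 8.60 to 19.8 in HYP and 3.45 to 10.7 in PCC and fell by 1.87 in PCC vs. WT (SE 0.34, edgeR adjusted *p* = 0.00192). Its HYP vs. WT fall of 0.97 (edgeR adjusted *p* = 0.0388) was lost without any of 7 libraries. Of 11 other acetylation genes tested in PCC vs. WT, 2 were higher and 7 lower, where 46.7% of all genes tested were higher and 38.5% lower.

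Among the methyltransferases, *Prmt8*, an arginine methyltransferase known mainly from neurons, marked the PCC group. It measured 2.21, 3.83, 2.90, 2.38 and 0.782 CPM in WT, 5.45, 1.48, 1.74, 4.76 and 3.34 CPM in HYP and 33.9, 16.2, 26.1, 14.3 and 21.7 CPM in PCC. WT and HYP overlapped, and every PCC sample was above both. The log2 fold change was 3.14 ± 0.41 in PCC vs. WT (edgeR adjusted *p* = 0.000341) and 2.65 ± 0.41 in PCC vs. HYP (edgeR adjusted *p* = 0.00495). Of the 9 named members called in PCC vs. HYP, it was the one that kept its call with each library left out, with the replicate block and with the cortex covariate (3.28, edgeR adjusted *p* = 0.0269). *Setd7*, a lysine methyltransferase of histone H3 and other proteins, rose by 1.60 ± 0.29 in PCC vs. WT (edgeR adjusted *p* = 0.00192), from 12.4 to 23.7 CPM in WT over 22.8 to 42.9 in HYP to 35.6 to 94.9 in PCC. Its HYP vs. WT rise of 0.84 (edgeR adjusted *p* = 0.0209) was lost without WT replicate 4 at 0.0515. *Setd8*, which methylates histone H4, fell by 0.73 in PCC vs. WT and by 0.76 in PCC vs. HYP, the first call lost without PCC replicate 3 and the second without any of 7 libraries.

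Of 12 SMARC and ARID members, which remodel nucleosomes, tested in PCC vs. WT, 8 were higher and 2 lower, so that 83.33% were called, near the 85.2% of all genes tested (46.7% higher and 38.5% lower). Their median was 0.65 on the log2 scale against 0.44 for all genes. With scaling to the library totals the split was 9 to 0, where that of all 7001 genes tested was 3520 to 1592. *Arid3b* measured 10.3, 8.06, 6.91, 13.0 and 10.7 CPM in WT, 16.0, 16.5, 16.0, 16.1 and 16.0 CPM in HYP and 27.5, 19.6, 21.9, 30.3 and 19.5 CPM in PCC, so that the groups did not overlap. Its log2 fold change was 1.25 ± 0.22 in PCC vs. WT (edgeR adjusted *p* = 0.00154) and 0.67 ± 0.19 in HYP vs. WT (edgeR adjusted *p* = 0.0306, lost without any of 8 libraries).

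*Smarcad1*, a remodeler that acts in heterochromatin and DNA repair, rose by 0.80 ± 0.16 in PCC vs. WT and 0.53 ± 0.14 in HYP vs. WT (edgeR adjusted *p* = 0.00292 and 0.0209). The second call was lost without HYP replicate 2, WT replicate 3 or WT replicate 4. The 2 ATPases of the SWI/SNF complex differed in direction: *Smarca2* rose by 0.69 ± 0.14, and *Smarca4* fell by 0.82 (SE 0.22) with WT samples at 305.1, 318.1, 496.6, 521.4 and 709.4 CPM and PCC samples at 236.4 to 303.4. *Smarca4* was highest in WT replicate 5, the library with the most cortex marker RNA, and was not called lower when libraries were scaled to their totals, where no member of its family was. It overlaps a listed U6 gene on the opposite strand.

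*Chd7*, a remodeler needed in the neural crest lineage, measured 20.6 to 29.9 CPM in WT, 41.2 to 64.6 in HYP and 48.4 to 112.9 in PCC. It rose by 1.36 ± 0.24 in PCC vs. WT and by 0.95 ± 0.17 in HYP vs. WT (edgeR adjusted *p* = 0.00154 and 0.00354), and no single library decided either call. *Chd5*, a remodeler expressed mainly in neural tissue, rose by 2.16 ± 0.56 in PCC vs. WT with PCC replicate 4, at 11.9 CPM, inside the WT range of 2.06 to 18.3. Of a list of 23 histone chaperones and remodeler partners outside the member families, 7 were tested in PCC vs. WT. All 7 were higher, with the median at 1.93, where 46.7% of all genes tested were higher with a median of 0.44. Only genes that the authors had called could be tested. The 7 included *Cenpa*, the histone of the centromere, and *Asf1b* and *Chaf1a*, which load histones on new DNA.

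*Hmgb2*, a DNA-bending protein of dividing cells, measured 14.7, 13.1, 10.3, 9.02 and 9.74 CPM in WT, 27.6, 32.1, 25.6, 18.8 and 23.2 CPM in HYP and 39.1, 56.3, 30.1, 56.8 and 29.9 CPM in PCC. All MENX samples lay above all WT samples. The rise was 1.87 ± 0.26 in PCC vs. WT (edgeR adjusted *p* = 0.000517) and 1.10 ± 0.20 in HYP vs. WT (edgeR adjusted *p* = 0.00369). *Hmga1*, an architectural protein of undifferentiated and tumor cells, measured 13.0, 11.99, 10.3, 6.51 and 8.39 CPM in WT, 13.4, 11.9, 8.58, 12.2 and 14.9 CPM in HYP and 22.1, 26.7, 25.9, 54.0 and 20.97 CPM in PCC. WT and HYP overlapped and PCC stood above both, with log2 fold changes of 1.53 ± 0.31 in PCC vs. WT and 1.18 ± 0.27 in PCC vs. HYP (edgeR adjusted *p* = 0.00347 and 0.0233). The second call was lost without HYP replicate 2, 3 or 4. *Hmgn2*, listed in HYP vs. WT only, rose by 0.60 ± 0.16 there (edgeR adjusted *p* = 0.0207), lost without WT replicate 4 at 0.0595.

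Of 12 histone members tested in PCC vs. WT, 8 were lower and 2 higher, where 38.5% of all genes tested were lower and 46.7% higher. With scaling to the library totals 5 were lower and 2 higher, where 1592 of all 7001 genes tested were lower and 3520 higher. *Hist1h4b* (ENSRNOG00000045840, chr4:170763605-170763916 on Rn06) measured 39.0, 45.4, 39.6, 58.9 and 46.7 CPM in WT, 22.6, 8.89, 16.5, 15.7 and 13.9 CPM in HYP and 3.78, 2.28, 6.22, 3.83 and 14.3 CPM in PCC. WT lay above both MENX groups, and PCC replicate 5 lay within the HYP range. It fell by 2.95 in PCC vs. WT (SE 0.44, edgeR adjusted *p* = 0.000621) and by 1.62 in HYP vs. WT (SE 0.23, edgeR adjusted *p* = 0.00113). A further *Hist1h4b* entry (ENSRNOG00000054017) fell by 1.91 in PCC vs. WT and by 1.31 in PCC vs. HYP (edgeR adjusted *p* = 0.00126 and 0.0487), the second lost without any of 8 libraries. *Hist1h1d* fell by 1.85 and 1.69 in these comparisons (edgeR adjusted *p* = 0.00406 and 0.0350, the second lost without any of 8 libraries), at 1.35 to 2.70 CPM in WT and 0.146 to 0.730 in PCC. Histone copies are near-identical and their reads may be split or lost in counting, and libraries were selected for poly-A tails, which transcripts of replication histones mostly lack. The values of single copies are therefore uncertain.

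*Hist3h2ba* rose instead, with 5.15, 7.51, 3.38, 2.13 and 0.711 CPM in WT, 11.7, 8.95, 7.93, 12.7 and 13.0 CPM in HYP and 8.34, 30.0, 7.77, 24.0 and 15.0 CPM in PCC (2.11 ± 0.60 in PCC vs. WT, edgeR adjusted *p* = 0.0188, and 1.45 ± 0.45 in HYP vs. WT, edgeR adjusted *p* = 0.0461, the latter lost without any of 7 libraries). *H2afz*, a replacement histone at promoters, fell by 0.48 in HYP vs. WT (edgeR adjusted *p* = 0.0423, lost without any of 8 libraries) and was higher in PCC vs. HYP by 0.88 ± 0.20 (edgeR adjusted *p* = 0.0246, lost without HYP replicate 2, 3 or 4). It measured 58.8 to 85.4 CPM in WT, 45.7 to 64.0 in HYP and 80.1 to 174.1 in PCC, and it overlaps the listed gene *Dnajb14* on the same strand.

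**Figure D4:**
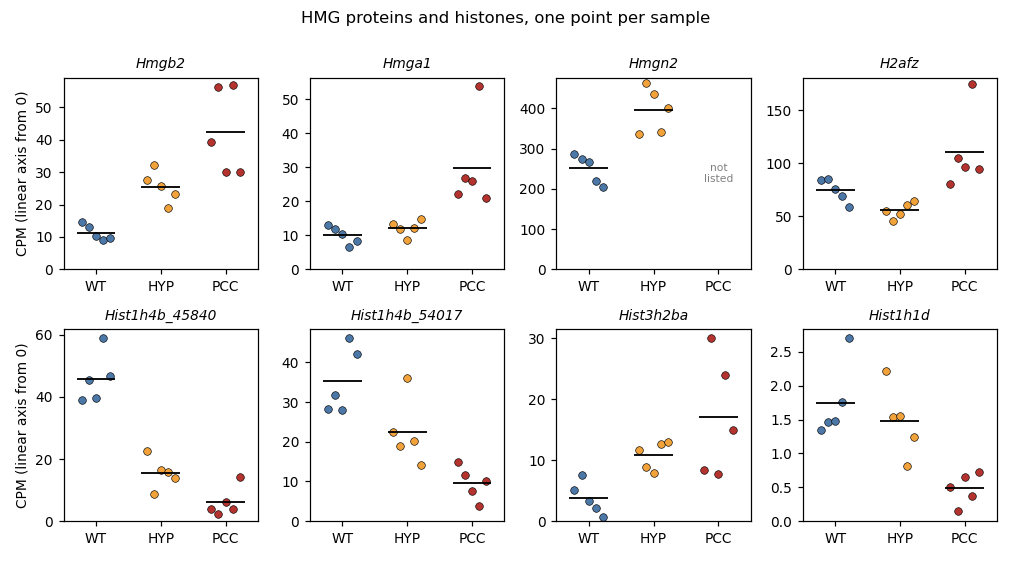
CPM (vertical axes, linear from 0) of 4 HMG and variant histone genes and 4 linker and core histone genes in each sample, with a line at the group mean (WT blue, HYP orange, PCC red). *Hmgb2* rises and *Hist1h4b* (labelled with the last digits of its identifier) falls from WT over HYP to PCC.

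Without WT replicate 5, the WT library without *Kdm5d* reads, the counts were 35 higher and 28 lower in PCC vs. WT, and 16 and 20 in HYP vs. WT. Without that library every WT sample has *Kdm5d* reads, so these counts cannot tell genotype from presence of a Y chromosome. The number of named members whose call withstood leaving out each library in turn was 27 of 35 in PCC vs. WT, 10 of 22 in HYP vs. WT and 1 of 9 in PCC vs. HYP. Many of these had been named for large changes without overlap in the same samples, so keeping the call was partly built in. Called members outside that choice are not in these counts. Some of them lost the call, such as *Sirt2* in PCC vs. WT without any of 9 libraries, while others, such as *Chd1*, kept it.

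**Figure D5:**
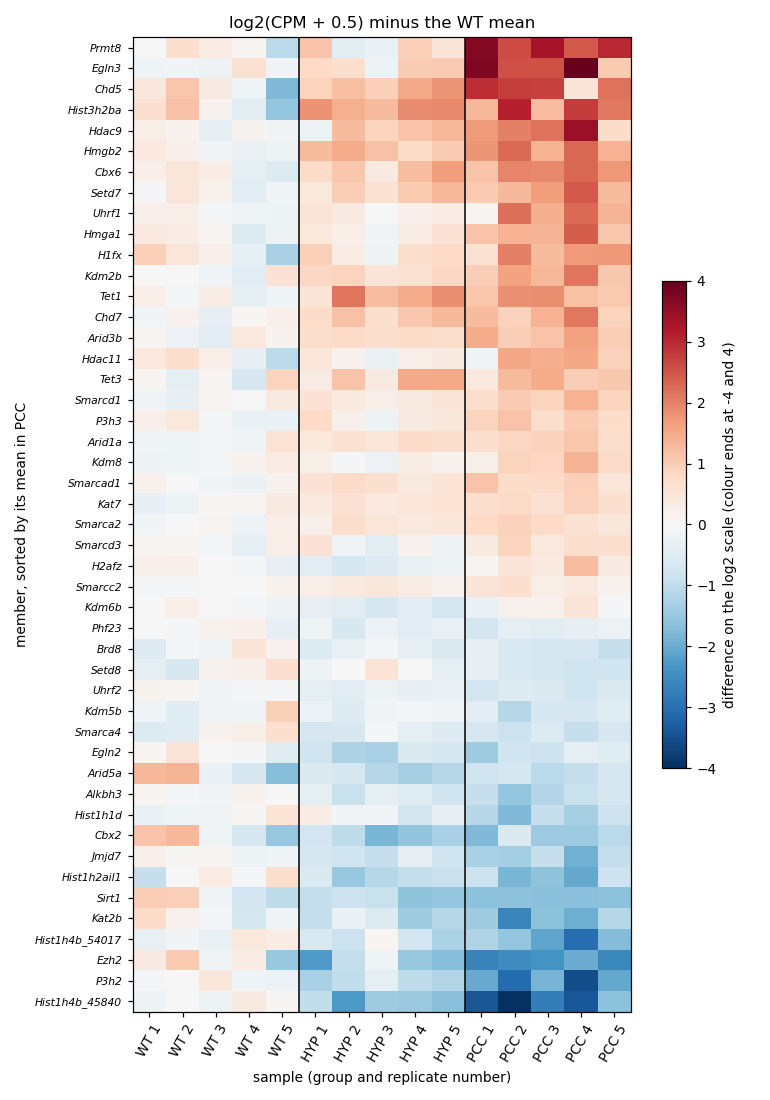
Difference of log2(CPM + 0.5) from the WT mean (color, ending at -4 and 4) for 47 members with values in all 15 samples and a mean of at least 1 CPM (rows, sorted by the PCC mean), in each sample (columns). Means in PCC run from 3.01 to -3.06, with 28 rows above and 19 below the WT mean.

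Other genes of the same complexes, from lists of related factors, added little for Polycomb because few were listed. Of the PRC1 and PRC2 accessory genes, *Pcgf6* and *Phc1* were listed for PCC vs. WT and both were higher (1.69 and 0.58). Of 4 other histone methyl writers and COMPASS genes tested there, 3 were higher and 1 lower, the lower being *Smyd2* at -0.53. The shares over all genes tested in PCC vs. WT were 46.7% higher and 38.5% lower. Further cell types moved as well: 4 of 6 Schwann and sustentacular markers were higher and 2 lower, 4 of 5 endothelial markers were lower and 1 higher, 5 of 5 fibroblast and pericyte markers were higher, and *Cd14*, the 1 leukocyte marker with values, was lower. Of the adipocyte and erythroid markers none had values. The part of these cells in the members' changes was not tested.

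Low members are accounted for here. Of the 89 members, 84 were tested in at least 1 comparison, and *Asxl3*, *P4ha3*, *Hist1h3f* and 1 copy each of *Hist1h4b* and *Hist2h2aa2* had too few reads in the comparisons that list them, with at most 27 in any sample. In number of tables, 38 members were listed in 1, 39 in 2 and 12 in all 3.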

How the data were processed

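RNA-seq was available for 15 samples, grouped by title as WT, HYP and PCC. According to the labels and the study's methods, poly-A RNA was made into libraries with a kit that does not mark strand, reads were mapped to Rn06 with HISAT2 2.0.5 and counted with featureCounts 1.5.0-p3 (versions from the submitters' processing notes), and groups were compared with DESeq2. The authors deposited, for each pair of groups, the genes they had called, with raw read counts, counts divided by size factors (a normalised signal), FPKM and p-values. The p-values of the deposited tables served here only to recover how many genes had entered each comparison (18790 in PCC vs. WT, 18057 in HYP vs. WT, 17454 in PCC vs. HYP). Their log2 fold changes were not used. Library totals were recovered from counts, FPKM and gene length. All counts of a gene in a sample were identical between tables.

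The test was edgeR 4.0.16 (R 4.3.3, limma 3.58.1), with TMM scaling over the listed genes, filterByExpr and the quasi-likelihood fit on the 5 against 5 samples of each comparison. *P*-values were adjusted after Benjamini and Hochberg, counting as tests all genes that had entered the authors' own comparison, and genes were called at 0.05. The standard error is the log2 fold change divided by the square root of F. CPM are counts per TMM effective library size over the 5492 genes with values in all samples, so their ratios differ from the fitted folds by a median over members of 0.03, 0.05 and 0.10 on the log2 scale. Scaling and fit rest on genes that the authors had called, so calls are no independent evidence. On simulated counts, 29.3%, 49.5% and 45.0% of 2-fold and 85.9%, 97.0% and 89.0% of 4-fold changes were recovered in the 3 comparisons. These counts held 99 or 100 changes of each size per comparison, among 6956, 4088 and 3139 genes. In the data, 85.2%, 72.1% and 44.4% of all genes tested were called. Recovery with so many changes, or with the adjustment used for the data, was not tested. Replicates of a group differed by more than sampling noise. The study's methods give 5 animals for each group, and the labels number the samples of a group from 1 to 5.

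The members, families and related lists were chosen with earlier results of these data known. Members named by rule are 40 genes. They hold all members of the dioxygenase families as grouped by symbol, of DNA methylation and of PRC2. Added per comparison were, among the rest, the 6 largest called changes in each direction. These had to reach a mean of 1 CPM with no overlap between the groups. Other genes were named after their values were seen. Alternatives were DESeq2 1.42.0, other scalings, filters and adjustment, the replicate number as a block, and each library left out. Promoters were matched to RefSeq by symbol. Python 3.11.15 with numpy 2.4.6, pandas 2.3.3, scipy 1.17.1 and matplotlib 3.10.9 was used for other steps. Some members are counted but not reported or drawn singly here.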

Additional observations from a re-analysis of the deposited data

Results flagged for a closer look

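Among 112 groups of 5 samples of the named members, 6 held a library far from the others by Dixon's test at its 95% critical value, and chance flags about 1 in 20 groups. *Hdac9* was at 1.78 CPM in HYP replicate 1 with the other HYP samples at 4.38 to 6.04. *Egln3* was high in WT replicate 4, at 1.75 CPM against 0.791 to 0.856, and low in HYP replicate 3, at 0.774 CPM against 1.87 to 2.55. *Hmga1* was at 54.0 CPM in PCC replicate 4, above 20.97 to 26.7 in the other PCC samples. *Kdm5b* was at 329.7 CPM in WT replicate 5, above 121.7 to 156.2 in the other WT samples. *Arid3b* was at 16.5 CPM in HYP replicate 2, where the other HYP samples lay between 16.0 and 16.1, a gap that is large only against their small spread.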

How the results depend on the processing

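Most named results kept their direction but many calls were close to the threshold: of 1636 values of the named members under alternatives, 1314 kept direction and side of the threshold, 272 lost the call, 47 gained it and 3 changed sign, and 8 of 83 results kept both under every alternative run. The sign changed for *Alkbh5* in PCC vs. WT (0.063) and *Uhrf2* in HYP vs. WT (0.068) with scaling to the listed totals, and for *Hdac9* in PCC vs. HYP (-0.051) with the cortex covariate. For PCC vs. WT, the 36 members called higher became 2 with the cortex marker level as a covariate, and ranged from 25 to 35 with 1 library left out. The 28 called lower became 18 with at least 10 counts in every sample, 12 with the recovered library totals, 12 with the listed totals and 4 with the cortex covariate, and ranged from 18 (without PCC replicate 3) to 28. For HYP vs. WT, the 13 called higher became 7 without WT replicates 1 and 2, 0 with the cortex covariate and 7 with the replicate block, and ranged from 4 (without WT replicate 4) to 16. The 16 called lower became 9 with at least 10 counts, 5 with the recovered totals, 2 with the listed totals, 8 without WT replicates 1 and 2 and 5 with the cortex covariate, and ranged from 9 to 20. For PCC vs. HYP, the 5 called higher became 20 with adjustment over the listed genes alone, 8 with the authors' size factors, 11 with the recovered totals, 1 with the cortex covariate and 1 with the replicate block, and ranged from 1 to 9. The 6 called lower became 11 with DESeq2, 11 with adjustment over the listed genes, 3 with at least 10 counts, 3 with the recovered totals, 3 with the listed totals, 0 with the cortex covariate and 0 with the replicate block, and ranged from 0 to 6. The causes were not tested, except that adjustment over the listed genes counts fewer tests. Scaling to the listed totals shifted the median of all genes by 0.50, 0.46 and 0.14 on the log2 scale in the same order of comparisons. The calls over all genes tested moved as well, and their splits under the recovered totals, the listed totals and the cortex covariate are given above. The cortex covariate and the removal of WT replicates 1 and 2 were chosen after seeing the data.

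Whether replicate numbers pair the samples was not tested. Deviations of same-numbered samples correlated between -0.141 and 0.213 in PCC vs. WT, -0.12 and 0.294 in HYP vs. WT, and -0.205 and 0.227 in PCC vs. HYP. In these comparisons 2, 2 and 1 of the 5 numbers matched best with themselves. With the replicate block, PCC vs. WT gave 28 members higher and 21 lower and HYP vs. WT 7 and 11. All genes tested then gave 2729 higher and 2303 lower in PCC vs. WT, and 1315 and 973 in HYP vs. WT.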
